A study of Mus musculus with 12 samples.

Results

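CD4+ T cells of SKG mice were compared with CD4+ T cells of BALB/c mice, with both groups taken from female mice at 40 weeks and both labelled as stimulated with PMA and ionomycin. The members are the 6 arrays of these groups, 3 per group, out of 12 arrays in the series. They were chosen by their labels and not by any measured value, and all genes were examined. SKG is a strain on the BALB/c background that carries a point mutation in Zap70, the kinase gene that acts directly downstream of the T cell receptor. The labels describe all 3 SKG arrays, and BALB replicates 2 and 3, as CD4+ lymphocytes lacking FR4 from lymph node. FR4 is a folate receptor on the T cell surface, encoded by Izumo1r. BALB replicate 1 has a different label, which names spleen as well as lymph node and does not name the FR4 sort. The other 6 arrays are of transferred T cells and do not enter here. The labels do not state whether replicates are different animals. The p-values therefore reflect the variation among 3 arrays per group, and that variation could be technical.

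Mature CD4+ T cells answer a signal through the T cell receptor with rapid transcription of immediate-early genes, followed by cytokine genes that depend on the cell's earlier history. Naive cells make mainly IL-2 at that point, while memory and effector cells also release lineage cytokines such as IL-4, IL-13 or IL-17. PMA, a phorbol ester that activates protein kinase C, and ionomycin, an ionophore that lets calcium into the cell, start this response downstream of the receptor. SKG mice develop autoimmune arthritis in which IL-17-producing CD4+ T cells take part. In bulk RNA, fewer cells of a kind and less RNA per cell cannot be told apart, which holds for every level given here.

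The deposited values were intensities of probe sets on Affymetrix mouse genome arrays. Levels are given as log2(intensity + 16) after quantile normalization of the 6 arrays, so that 1 unit is a doubling and values near 4 mean almost no signal. Trimmed mean intensities were 235 in BALB replicate 3 and 223 in SKG replicate 3, and 162 to 179 in the other arrays of these groups. Levels over all tested genes correlated at 0.973 to 0.991 within a group and at 0.919 to 0.958 between groups. The 3'/5' ratio of the actin control probe sets, a measure of how intact the labelled RNA is, was 3.04, 2.95 and 3.98 in BALB and 2.12, 1.93 and 2.63 in SKG. The same ratio for Gapdh overlapped, at 3.28, 3.03 and 2.86 in BALB and 3.03, 2.57 and 2.90 in SKG. Their part in the differences between the groups was not tested. Of 14 tested T cell identity genes, 2 rose and 3 fell. Thy1 rose by 1.45 ± 0.15 (SE) and Trat1 by 1.34 ± 0.26, and Cd5 fell by 0.97 ± 0.19, Lat by 0.71 ± 0.18 and Cd247 by 0.49 ± 0.16. The falls were 2 without any 1 BALB array, 1 without SKG replicate 1 or 2 and 0 without normalization. Cd4 and Cd3d did not pass, with Cd4 at 6.68 ± 0.09 (SD, n = 3) in BALB and 6.90 ± 0.30 in SKG, and Cd3d at 10.59 ± 0.16 and 10.75 ± 0.11. Izumo1r was 6.45, 6.39 and 6.15 in BALB and 7.00, 7.15 and 7.35 in SKG, a rise of 0.84 ± 0.18 (SE). The BALB array without FR4 in its label stood beside the other BALB arrays for this gene.

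Of 12076 genes tested, 3321 passed an adjusted p under 0.05 in limma (27.5%). The transcripts of 1901 genes were higher in SKG (15.7%) and those of 1420 were lower (11.8%). At least 2-fold changes were found for 724 genes that rose and 626 that fell. At 8-fold, rises outnumbered falls at 32 against 13. Groups did not overlap for 1893 of the genes called higher and 1408 of those called lower. Among all tested genes, all SKG arrays lay above all BALB arrays for 24.9% and below them for 18.4%. Split by mean level into 4 sets of 3019 genes, the dimmest set gave the fewest calls (6.43%), against 29.7%, 37.3% and 36.6% in the brighter sets. The median difference over all tested genes was 0.06, and the middle 50% of genes lay between -0.28 and 0.42. The number of calls depended on single arrays. Without BALB replicate 1 there were 1256 genes higher (10.4% of those then tested) and 874 lower (7.23%). Without SKG replicate 1 there were 1114 and 886, and without SKG replicate 2 there were 1157 and 905. List counts given here are to be read beside 15.7% higher and 11.8% lower. Those without BALB replicate 1 are to be read beside 10.4% and 7.23%.

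**Figure D1:**
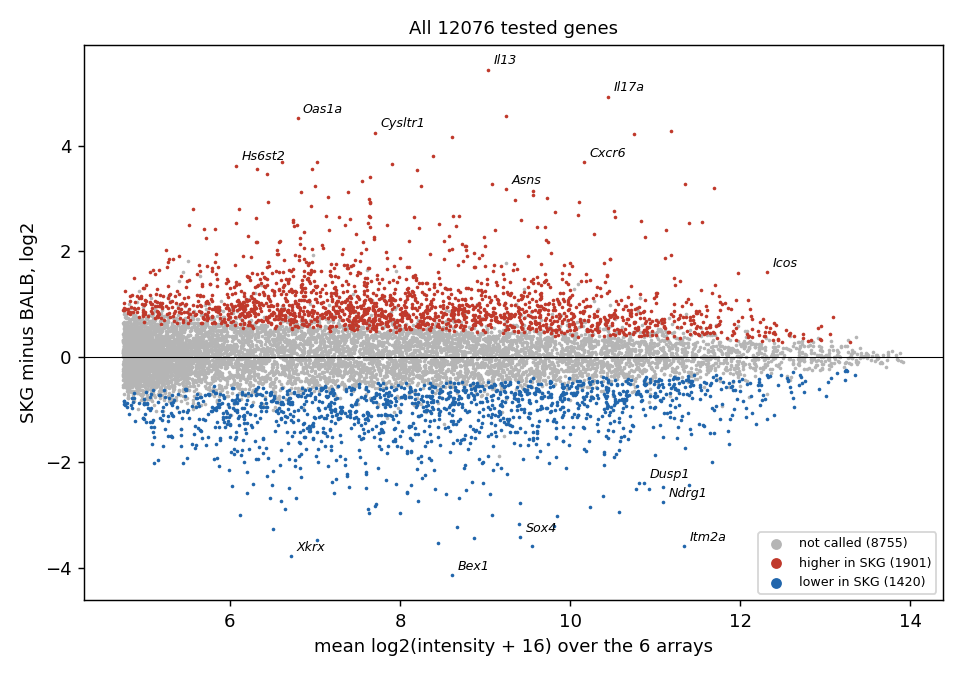
Difference between the group means (SKG minus BALB, log2) against the mean level over the 6 arrays, log2(intensity + 16), with 1 point per gene for 12076 genes. Red points were called higher in SKG (1901), blue points lower (1420) and grey points were not called; the named genes are among those given in the text, from Il13 at 5.43 to Bex1 at -4.13.

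Cytokine genes were among the largest rises. Il13, a cytokine of type 2 immunity, read 6.76, 7.50 and 4.71 in the BALB arrays and 12.45, 12.71 and 10.11 in the SKG arrays. The groups were far apart, although replicate 3 was lowest in both. The difference was 5.43 ± 0.80 (SE), a 43.2-fold rise (limma adjusted p = 0.00173). Il17a, the cytokine that defines Th17 cells, read 7.78, 7.55 and 8.63 in BALB and 12.93, 12.77 and 13.02 in SKG. All SKG arrays sat together near the top of the scale, and the rise was 4.92 ± 0.25 (adjusted p = 1.77e-05). Il10, whose product restrains immune responses, read 7.24, 7.30 and 6.34 in BALB against 12.97, 12.62 and 8.98 in SKG. SKG replicate 3 was between the BALB arrays and the other SKG arrays for this gene. Il4, the cytokine that drives Th2 differentiation, read 9.02, 9.52 and 8.60 in BALB and 13.67, 13.70 and 12.61 in SKG, a 19.4-fold rise. Il9, a growth factor for mast cells, rose by 3.81 ± 0.55.

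Promoter sequences are shown for Il4 and Il13, neighbours in the type 2 cytokine cluster on chromosome 11, and for Il17a, because these lineage cytokines were among the 15 largest rises. Each line holds the 250 bases before the RefSeq start site of the gene (GRCm38.p6, most upstream start), on the gene's strand. The Il4 window is chr11:53618666-53618915 (minus strand), that of Il13 is chr11:53634703-53634952 (minus strand) and that of Il17a is chr1:20730655-20730904 (plus strand). Capitals mark GGAAA on either strand, the core bound by NFAT, the factor that calcium activates through calcineurin; 2 matches can share bases with other motifs.
Il4: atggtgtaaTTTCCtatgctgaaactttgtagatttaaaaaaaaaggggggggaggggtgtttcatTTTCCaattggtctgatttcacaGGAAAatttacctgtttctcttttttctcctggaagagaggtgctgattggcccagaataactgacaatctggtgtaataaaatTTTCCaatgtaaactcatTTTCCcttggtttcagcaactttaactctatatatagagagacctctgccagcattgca
Il13: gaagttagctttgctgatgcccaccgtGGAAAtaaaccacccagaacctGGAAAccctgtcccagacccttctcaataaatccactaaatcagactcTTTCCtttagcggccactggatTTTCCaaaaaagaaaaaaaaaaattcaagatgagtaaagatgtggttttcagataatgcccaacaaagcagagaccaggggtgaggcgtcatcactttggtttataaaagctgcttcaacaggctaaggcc
Il17a: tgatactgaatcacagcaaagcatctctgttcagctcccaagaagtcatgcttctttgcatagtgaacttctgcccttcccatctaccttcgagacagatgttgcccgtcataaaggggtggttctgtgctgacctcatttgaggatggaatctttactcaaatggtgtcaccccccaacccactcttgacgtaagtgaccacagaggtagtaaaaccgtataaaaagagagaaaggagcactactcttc
The Il4 window held 5 matches and that of Il13 held 4, while these letters did not occur in the Il17a window. Of the promoters of 9765 tested genes with an entry in the table, 54.1% held the core, as did 55.6% of the promoters of 27025 genes in all. Among genes called higher in SKG the share was 56.3%, and among genes called lower it was 51.2%. Of the 7 interleukin genes that rose and had an entry, 6 held it. These are counts of letters in a short window and were not tested.

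Across the interleukin genes as a family, 9 of 23 tested members rose and 2 fell, against 15.7% and 11.8% of all genes. Without BALB replicate 1 the counts were 8 and 1. The risers included Il21, a cytokine of follicular helper and Th17 cells, which went from 9.44, 9.72 and 10.00 to 13.14, 13.08 and 12.73. The fallers were Il23a and Il31. Il23a, a subunit of IL-23, read 5.94, 6.08 and 6.21 in BALB and 4.25, 4.19 and 5.24 in SKG. Il31, an itch-inducing cytokine, fell by 1.55 ± 0.38, and this call was lost when BALB replicate 1 or 2, or SKG replicate 1 or 2, was left out. Il2, the cytokine of freshly activated T cells, was near the top of the scale in every array, from 13.21 to 13.44, and Cd69, an early activation marker, lay between 12.68 and 13.16. Neither gene passed the test, although Cd69 did with the replicate block (limma adjusted p = 0.0268), and both were looked up after the results were seen.

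Receptors for these cytokines moved in both directions, with 9 of 22 tested interleukin receptor genes higher and 4 lower. Without BALB replicate 1 there were 7 and 2, and the falls were 2 without BALB replicate 2 and 7 without SKG replicate 3. Il1r1, the signalling receptor for IL-1, read 4.39, 4.39 and 4.84 in BALB and 7.66, 8.24 and 8.41 in SKG. Il1r2, the decoy receptor for the same ligand, rose by 2.46 ± 0.22, a 5.50-fold change. Il7r, the receptor chain for the survival factor IL-7, rose by 1.58 ± 0.15, and Il18rap, an IL-18 receptor chain, by 1.45 ± 0.18. The members that fell were Il21r, Il17ra, Il17rd and Il6ra. Il21r, the receptor for IL-21, went from 9.06, 8.85 and 9.24 to 8.12, 8.11 and 8.07. Its ligand gene Il21 therefore rose while the receptor gene fell. Il17ra fell by 0.86 ± 0.23, Il17rd by 1.69 ± 0.22 and Il6ra by 1.62 ± 0.49. The Il17ra call was lost without BALB replicate 1 or 2, and that of Il6ra when any array except SKG replicate 3 was left out.

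Chemokine genes and chemokine receptor genes rose more often than they fell, as did all genes (15.7% against 11.8%). The shares were 33.3% and 4.76% for chemokines and 57.1% and 14.3% for receptors. Of 21 tested chemokine genes, 7 rose and 1 fell, and of 14 tested receptor genes, 8 rose and 2 fell; without BALB replicate 1 the counts were 6 and 1, and 6 and 2. Ccl20, the ligand of CCR6, read 5.42, 5.55 and 7.27 in BALB and 9.23, 8.96 and 11.004 in SKG. Replicate 3 was the highest array of its own group in both. Ccr6 itself read 5.92, 6.31 and 6.34 in BALB and 9.31, 8.95 and 9.08 in SKG, a 7.55-fold rise. Ccl1 rose by 4.22 ± 0.32, whereas Ccr8, which encodes its receptor, was 7.42, 7.37 and 6.14 in BALB and 6.13, 6.75 and 5.67 in SKG and did not pass (limma adjusted p = 0.160). With the replicate block it did (limma adjusted p = 0.0185).

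Cxcl10, an interferon-induced ligand of CXCR3, was the chemokine gene that fell. It read 10.18, 10.18 and 10.72 in BALB and 7.96, 7.20 and 8.09 in SKG, a fall of 2.60 ± 0.26 on the log2 scale. The receptor gene Cxcr3 moved the other way, from 8.51, 8.53 and 8.07 to 11.15, 10.97 and 10.39. Receptors that guide cells into inflamed tissue rose most, with Ccr2 at 4.16 ± 0.38 and Cxcr6 at 3.68 ± 0.23. The receptors that fell were Ccr7 and Cxcr4, which hold lymphocytes in lymphoid organs and bone marrow. Not all receptors of lymphoid organs fell, since Cxcr5, which guides cells into follicles, rose by 1.15. Ccr9, a gut-homing receptor, rose by 1.68. Ccr7 read 11.49, 11.64 and 11.09 in BALB and 7.70, 7.88 and 9.05 in SKG. Cxcr4 fell by 1.88 ± 0.30 and was lowest in SKG replicate 3, at 6.55.

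**Figure D2:**
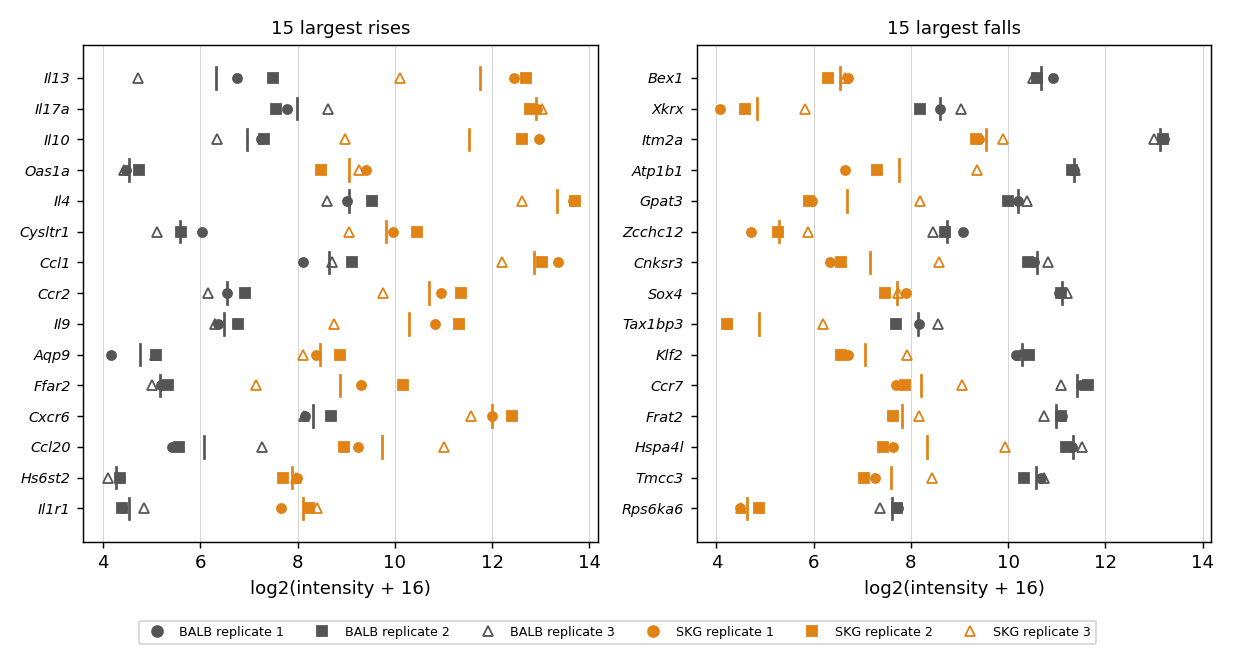
Levels, log2(intensity + 16), on each of the 6 arrays for the 15 largest rises and the 15 largest falls among called genes whose groups did not overlap. Grey symbols are BALB and orange symbols SKG, circles, squares and open triangles are replicates 1, 2 and 3, and vertical ticks are group means of 3 arrays; SKG replicate 3 lies between the groups for Il10 (8.98) and Hspa4l (9.94) and with the other SKG arrays for Il17a (13.02) and Bex1 (6.64).

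Receptors for lipid mediators were another class of surface protein in which rises outnumbered falls. Of 20 tested genes for lipid mediator and purine receptors, 6 rose and 2 fell (30.0% and 10.0%), against 15.7% and 11.8% of all genes. Without BALB replicate 1 there were 6 and 1. Cysltr1, a receptor for cysteinyl leukotrienes, read 6.04, 5.60 and 5.11 in BALB and 9.96, 10.46 and 9.06 in SKG. That is a 19.0-fold rise, and the 2 probe sets of the gene gave 4.18 and 4.25. Ptger2, a receptor for prostaglandin E2 that raises cyclic AMP, had a p-value among the smallest of all genes (limma adjusted p = 1.48e-05). It went from 8.72, 8.73 and 8.80 to 11.51, 11.35 and 11.46. Ptger4, the gene of a related prostaglandin E2 receptor, lay between 12.91 and 12.99 in all 6 arrays. Ltb4r1, the high-affinity leukotriene B4 receptor, rose by 2.02 ± 0.20 and Cysltr2 by 1.73 ± 0.28. Lpar6, a lysophosphatidic acid receptor, fell by 1.39 ± 0.26. P2ry14 fell by 0.65 ± 0.20, a call that was lost without BALB replicate 1. Among the 15 largest rises, Ffar2, a receptor for short-chain fatty acids, rose by 3.69 ± 0.62 and Aqp9, a channel for water and glycerol, by 3.69 ± 0.30. Hs6st2, a heparan sulfate sulfotransferase, rose by 3.62 ± 0.18 from levels near the bottom of the scale (4.34, 4.35 and 4.11), where the added constant of 16 understates a fold change.

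Bex1, a small adaptor protein, read 10.92, 10.60 and 10.51 in BALB and 6.70, 6.31 and 6.64 in SKG, a fall of 4.13 ± 0.18 on the log2 scale. Itm2a, a membrane protein of developing and activated T cells, read 13.21, 13.18 and 13.00 in BALB and 9.40, 9.33 and 9.89 in SKG. It was among the brightest genes of the BALB arrays. Sox4, a transcription factor, fell by 3.41 ± 0.16, and all 6 of its probe sets fell, by 0.99 to 3.41. Klf2, the factor that keeps recirculation receptors expressed, fell by 3.23 ± 0.32. Atp1b1, a subunit of the sodium pump, fell by 3.58 ± 0.56, with its 5 probe sets ranging from -4.50 to -0.11. Other falls of this size were Xkrx, Gpat3, Zcchc12, Cnksr3, Tax1bp3, Frat2, Hspa4l, Tmcc3 and Rps6ka6, which dropped by 3.77 to 2.99. Gpat3 makes glycerolipid precursors, Frat2 inhibits the kinase GSK3, and Rps6ka6 is a kinase of the RSK family.

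Immediate-early transcription factors and related genes, the most rapid targets of PMA and ionomycin, were lower in SKG. Of 26 tested, 15 fell and 1 rose, with a median difference of -0.56 against 0.06 over all genes. The number that fell was 14 without BALB replicate 1, and 9 when all 12 arrays were fitted together. Dusp1, a phosphatase that switches off MAP kinases, read 12.10, 11.83 and 12.28 in BALB and 9.67, 9.53 and 9.82 in SKG. The fall was 2.40 ± 0.15 on the log2 scale, with all SKG arrays at least 2 units below all BALB arrays. Nr4a1, an orphan nuclear receptor induced by T cell receptor signals, read 12.82, 12.90 and 13.01 in BALB and 11.65, 11.74 and 11.78 in SKG. Jun, a subunit of the AP-1 factor, fell by 2.21 ± 0.18 and Fosb, a partner of Jun, by 1.94 ± 0.22. Fos read 12.72, 12.81 and 12.92 in BALB and 11.33, 11.33 and 11.98 in SKG, and its call was lost in the fit of all 12 arrays. Egr1, a zinc finger factor of the same early wave, was the member that rose, from 11.11, 11.27 and 11.55 to 12.20, 12.29 and 12.11. The Egr1 call was lost without normalization and in the fit of all 12 arrays.

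The promoters of Fos, Nr4a1 and Dusp1 are shown because these bright early genes fell together and are textbook targets of the factor CREB. Capitals mark TGACG on either strand, the core of its binding site; overlapping matches on the 2 strands run together. The windows are chr12:85473640-85473889 (plus strand), chr15:101266596-101266845 (plus strand) and chr17:26508473-26508722 (minus strand).
Fos: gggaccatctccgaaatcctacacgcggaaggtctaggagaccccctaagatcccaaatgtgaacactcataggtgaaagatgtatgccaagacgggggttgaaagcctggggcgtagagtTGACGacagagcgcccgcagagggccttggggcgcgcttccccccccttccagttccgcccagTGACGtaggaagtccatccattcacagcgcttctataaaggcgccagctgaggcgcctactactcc
Nr4a1: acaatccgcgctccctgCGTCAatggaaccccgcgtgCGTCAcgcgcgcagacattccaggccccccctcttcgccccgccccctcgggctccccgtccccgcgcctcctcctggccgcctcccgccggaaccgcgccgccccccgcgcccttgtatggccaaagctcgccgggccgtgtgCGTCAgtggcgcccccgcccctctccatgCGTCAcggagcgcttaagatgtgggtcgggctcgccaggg
Dusp1: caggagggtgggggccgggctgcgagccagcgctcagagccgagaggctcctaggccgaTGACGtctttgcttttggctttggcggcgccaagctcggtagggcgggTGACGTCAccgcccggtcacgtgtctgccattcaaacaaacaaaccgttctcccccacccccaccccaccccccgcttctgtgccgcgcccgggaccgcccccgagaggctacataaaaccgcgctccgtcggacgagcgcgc
The windows held 2, 4 and 3 matches. Of the 12 immediate-early genes that fell and had an entry, 7 held the core (58.3%), against 26.8% of tested genes and 17.8% of all promoters. The share was 30.0% among all genes called lower and 27.4% among those called higher. NFAT cores stood in 4 of the same 12 promoters. Immediate-early genes that did not fall were not counted apart, so these shares do not set falling members against the others. The counts were not tested.

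Dual-specificity phosphatases, which remove phosphate from MAP kinases, gave 8 falls and 2 rises among 18 tested genes, and the same counts without BALB replicate 1. Dusp16 read 10.13, 9.98 and 9.79 in BALB and 8.13, 8.09 and 8.07 in SKG. Dusp5, a nuclear phosphatase for ERK, fell by 1.83 ± 0.18 and Dusp8 by 1.93 ± 0.24. Dusp3 rose by 1.25 ± 0.20 and Dusp19 by 0.96 ± 0.24, both from dim levels. Among genes known as brakes on T cell receptor signals, 10 of 24 fell and 1 rose; the number that fell was 7 without BALB replicate 1 and 6 without normalization or in the fit of all 12 arrays. Spry1, an inhibitor of the Ras pathway, read 12.71, 12.69 and 12.62 in BALB and 11.45, 11.44 and 11.92 in SKG. Tnfaip3, which restrains NF-κB, fell by 0.66 ± 0.10. Rgs2, a regulator of G protein signals, fell by 1.31 ± 0.22. Rgs1, a relative of Rgs2, was the member that rose, from 10.96, 11.37 and 11.23 to 12.96, 12.76 and 12.57.

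Krüppel-like factors, zinc finger proteins many of which favour quiescence, gave 6 falls and no rise among 13 tested genes. Without BALB replicate 1 there were 5. Beside Klf2, the gene Klf10 fell from 8.33, 8.14 and 9.04 to 6.002, 6.30 and 6.44. Klf11 fell by 1.26 ± 0.18 and Klf4 by 1.20 ± 0.24. Of 17 tested genes of proximal T cell receptor signalling, 4 fell and none rose. The falls were 2 without BALB replicate 1 or 2 or SKG replicate 2, 1 without SKG replicate 1 or without normalization, and 7 with array weights. The median of -0.33 was -0.079 with the median of probe sets. Zap70, the gene mutated in SKG, read 11.69, 11.65 and 11.26 in BALB and 10.86, 11.07 and 10.86 in SKG. Its fall of 0.60 ± 0.14 was a call that was lost without BALB replicate 1 or 2, without SKG replicate 1 and in the fit of all 12 arrays. Bcl10, an adaptor toward NF-κB, fell by 0.63 ± 0.11 and Lat by 0.71 ± 0.18. For calcium entry, Orai1, the pore of the store-operated channel, fell by 1.19 ± 0.24 and its sensor Stim2 by 0.99 ± 0.20. The calcineurin subunit gene Ppp3cb rose by 1.12 ± 0.16 and Ppp3cc by 0.97 ± 0.25, as did Itpr2, a channel of calcium stores, by 0.89 ± 0.17. The calcium list as a whole gave 6 falls and 3 rises of 20, and 3 and 2 without BALB replicate 1, with 2 falls without SKG replicate 1.

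**Figure D3:**
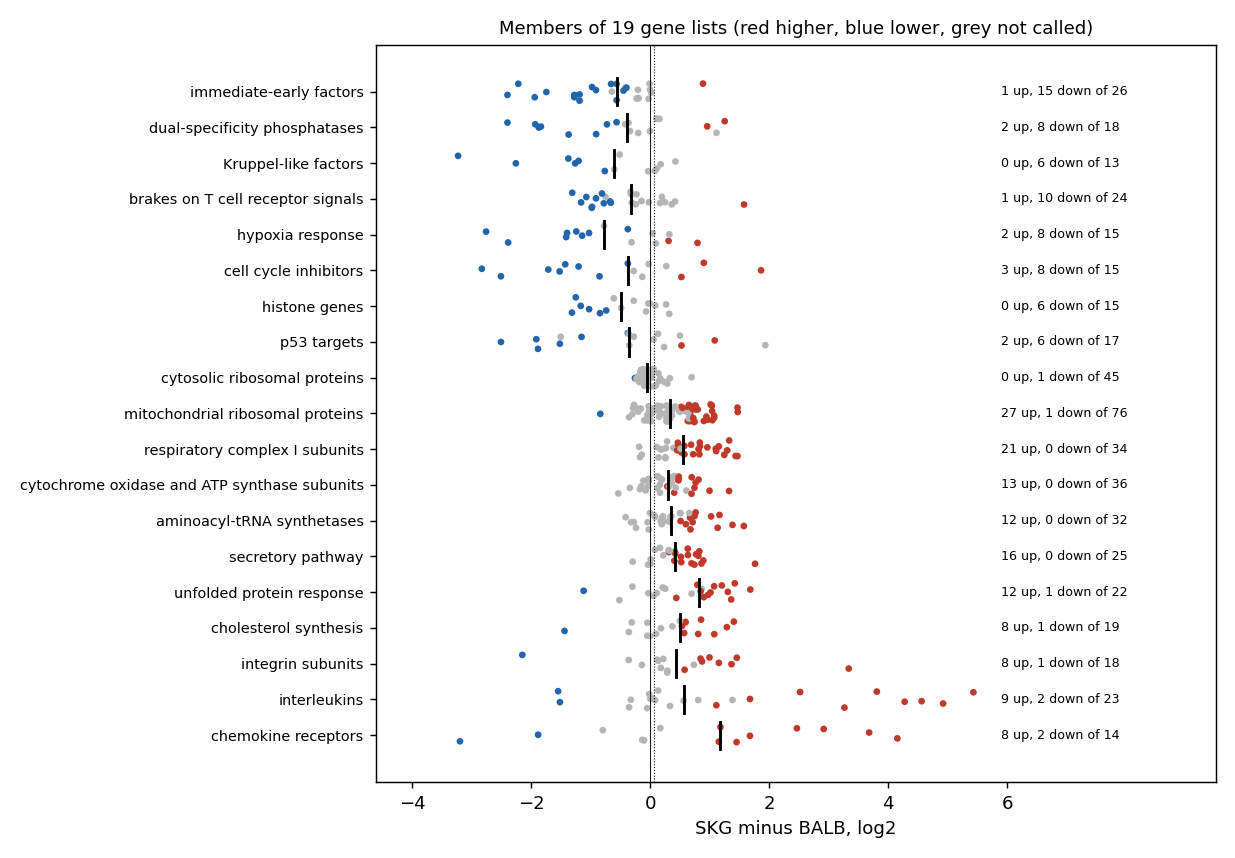
Difference between SKG and BALB (log2) for each tested member of 19 gene lists, with red for genes called higher, blue for lower and grey for neither. Black bars are list medians, the dotted line is the median of all tested genes (0.06), and the counts at the right give members called; immediate-early factors lie mostly left (15 of 26 down) and complex I subunits right (21 of 34 up), while cytosolic ribosomal proteins cluster at 0.

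A group of genes for folding and export of proteins in the endoplasmic reticulum rose together. Of 22 tested genes of the unfolded protein response, 12 rose and 1 fell, with a median difference of 0.82. The numbers were the same without BALB replicate 1, and 7 rose when each gene was given the median of its probe sets. Manf, a secreted protein made under folding stress, read 11.10, 10.99 and 10.98 in BALB and 12.30, 12.47 and 12.38 in SKG. The arrays within each group lay close together, and the rise was 1.36 ± 0.10 (limma adjusted p = 8.84e-05). Creld2 rose by 1.42 ± 0.13, from 9.71, 9.56 and 9.84 to 11.17, 11.11 and 11.09. Sdf2l1, a component of chaperone complexes in this compartment, rose by 1.68 ± 0.16. Xbp1, the transcription factor at the centre of this response, rose by 1.02 ± 0.11, and all 4 of its probe sets rose, by 0.66 to 1.21. Eif2ak3, which encodes the stress sensor PERK, was the member that fell, from 9.51, 9.35 and 9.76 to 8.42, 8.57 and 8.28; this call was lost with the median of its probe sets.

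In the secretory pathway, which brings proteins into this compartment and onward, 16 of 25 tested genes rose and none fell. The changes were small, with a median of 0.43. The count was 7 without BALB replicate 1, 9 without BALB replicate 2, 8 without SKG replicate 1, 7 without SKG replicate 2, 8 with the median of probe sets, 10 without the trend and 4 without normalization. Sec11c, a signal peptidase subunit, changed most and read 8.85, 8.81 and 8.67 in BALB and 10.97, 10.61 and 10.03 in SKG. Ssr3 and Ssr4, subunits of the translocon-associated complex, rose by 0.77 ± 0.10 and 0.89 ± 0.12, and Spcs2, of the signal peptidase, by 0.86 ± 0.12. The family of heat shock and J proteins gave 18 rises and 7 falls of 61 (29.5% and 11.5%), against 15.7% and 11.8% of all genes. There were 10 and 5 without BALB replicate 1. The rises were 10 without BALB replicate 2, 8 without SKG replicate 1, 11 without SKG replicate 2 or with the median of probe sets, and 7 without normalization. The falls were 4 without BALB replicate 2 or without normalization and 3 without SKG replicate 1 or 2. Dnajc3 rose by 1.21 ± 0.15 and Hsp90b1 by 0.90 ± 0.13, and Hspa4l fell by 3.01 ± 0.55. Dnajb4 fell by 2.72 ± 0.34, and its 3 probe sets ranged from -3.06 to 0.19. The others that fell were Dnajc12 (-1.83 ± 0.39), Hspa2, Hspb11, Hspa14 and Dnaja2, the last 3 by less than 1 unit. The calls of Hspb11, Hspa14 and Dnaja2 were lost under 8, 7 and 10 of 18 alternatives.

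Genes for mitochondrial energy production also rose, by small amounts and in large numbers. Of 34 tested subunits of respiratory complex I, the entry point of the electron transport chain, 21 rose and none fell, with a median difference of 0.55. There were 16 rises without BALB replicate 1 and 11 without normalization. Ndufc1 read 8.92, 9.11 and 8.93 in BALB and 10.41, 10.31 and 10.55 in SKG. Ndufb3 rose by 1.47 ± 0.17, Ndufs5 by 1.25 ± 0.15 and Ndufb9 by 1.10 ± 0.14. Each of these genes encodes an accessory subunit of the complex. Of 36 tested subunits of cytochrome oxidase and ATP synthase, 13 rose and none fell, with 7 rises without BALB replicate 1 or 2 or SKG replicate 1 or 2, and 2 without normalization. Atp5j, a stalk subunit of ATP synthase, rose most clearly, from 9.49, 9.76 and 9.69 to 10.88, 10.94 and 11.10.

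Proteins of the mitochondrial ribosome, which translates the mitochondrial genome, gave 27 rises and 1 fall among 76 tested genes. There were 19 rises without BALB replicate 1 and 14 without normalization. Mrpl23 read 8.19, 8.51 and 8.78 in BALB and 10.02, 9.91 and 9.95 in SKG. Mrpl24 rose by 1.02 ± 0.13 and Mrpl39 by 0.97 ± 0.13. Mrpl51 rose by 1.05 ± 0.13, a call lost with the median of its 3 probe sets, which ranged from -0.02 to 1.05. Mrps34 fell by 0.84 ± 0.22, and this call was lost without BALB replicate 2 or 3 or SKG replicate 1 or 2. Cytosolic ribosomal proteins gave a different picture, with no rise and 1 fall among 45 tested genes (2.22%), which is fewer calls than the 27.5% over all genes. The member that fell, Rpl8, changed by 0.25 ± 0.08, and this call was lost when any array except SKG replicate 3 was left out. Rpl8 read 13.01 to 13.41, near the top of the scale, where the highest mean of a tested gene was 13.92. The summed linear intensity of the 48 genes of this family was 373390 to 403011. Whether the top of the scale compressed their differences was not tested.

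Of 32 tested aminoacyl-tRNA synthetases, which charge tRNAs with amino acids, 12 rose and none fell, with 10 rises without BALB replicate 1, 7 without SKG replicate 1 and 5 without normalization. Lars2, the mitochondrial leucine enzyme, read 6.03, 6.40 and 6.04 in BALB and 7.77, 7.69 and 7.74 in SKG. Its cytosolic counterpart Lars rose by 1.13 ± 0.15, the mitochondrial arginine enzyme Rars2 by 1.38 ± 0.19 and the cytosolic isoleucine enzyme Iars by 0.75 ± 0.11. Asns, the asparagine synthetase, changed most among amino acid genes and read 7.91, 7.74 and 7.36 in BALB against 11.20, 11.03 and 10.28 in SKG. That was an 8.99-fold rise, and its 2 probe sets gave 3.17 and 3.52. Chac1, which degrades glutathione and is induced with Asns by amino acid stress, rose by 2.40 ± 0.27, and Aldh18a1, an enzyme of proline synthesis, by 1.67 ± 0.15. The list for amino acid stress and transport gave 4 rises and 2 falls of 15, the falls being Sesn2 (-1.52 ± 0.35) and the transporter Slc38a2 (-0.49 ± 0.13). For serine and one-carbon metabolism, 6 of 10 genes rose, but 3 without BALB replicate 1, without BALB replicate 3 or in the fit of all 12 arrays, and 2 without SKG replicate 1 or 2. Mthfd1 (0.96 ± 0.12) had the smallest p of them.

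Central carbon and lipid enzymes moved gene by gene. In glycolysis, 1 of 16 tested genes rose and 4 fell; 2 fell without BALB replicate 1, without SKG replicate 1, without the filter or without normalization, and 7 with array weights. Hk2, the inducible hexokinase, rose from 10.37, 10.39 and 10.22 to 11.72, 11.14 and 10.98. Slc2a3, a glucose transporter, fell by 1.13 ± 0.15 and Aldoc, an aldolase, by 1.01 ± 0.21. In cholesterol synthesis, 8 of 19 rose and 1 fell, with 5 rises without BALB replicate 1 or 3 and 4 without SKG replicate 2, without normalization or with the median of probe sets. Fdft1, squalene synthase, read 8.55, 8.53 and 8.18 in BALB and 9.68, 9.74 and 10.06 in SKG. Hsd17b7 rose by 1.29 ± 0.17 and Lss, lanosterol synthase, by 1.08 ± 0.17. Dhcr7, which catalyses the last step to cholesterol, fell from 6.65, 6.87 and 7.22 to 5.40, 5.46 and 5.57. The steps of this pathway therefore did not move as a block.

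Genes that respond to low oxygen were mostly lower. Of 15 tested, 8 fell and 2 rose, and without BALB replicate 1 there were 7 and 1. Ndrg1, a stress-induced gene of growth arrest, read 12.58, 12.37 and 12.45 in BALB and 9.28, 9.32 and 10.53 in SKG. All 5 of its probe sets fell, by 2.76 to 2.94. Bnip3, a mitophagy receptor, fell by 1.14 ± 0.18, Mxi1, an antagonist of Myc, by 1.41 ± 0.24 and P4ha1, a prolyl hydroxylase of collagen, by 1.03 ± 0.18. Egln3, an oxygen sensor, rose by 0.80 ± 0.18. Hif1a, the factor itself, rose by 0.31 ± 0.10, a call lost under most alternatives, among them leaving out BALB replicate 1 or 2 or SKG replicate 1 or 2.

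Inhibitors of the cell cycle fell in the same arrays. Of 15 tested, 8 fell and 3 rose; without BALB replicate 1 there were 7 and 2. Cdkn1a, which encodes p21 and blocks cyclin-dependent kinases, read 12.20, 11.92 and 12.41 in BALB and 9.70, 9.04 and 10.28 in SKG. Both of its probe sets fell by 2.51. Cdkn1c, of the same family, fell by 2.83 ± 0.51 and Foxo3, a quiescence factor, by 1.71 ± 0.16. Rbl2, a pocket protein of resting cells, rose from 6.58, 7.07 and 7.10 to 8.82, 8.96 and 8.56. Cdkn2a (0.90 ± 0.24) and Ccng1 (0.53 ± 0.15) also rose, with both calls lost in several settings that left out 1 array. Cdkn2b, a cell cycle inhibitor outside the list, was called higher by 1.04. Among targets of p53, of which Cdkn1a is a member too, 6 of 17 fell and 2 rose, with 5 and 1 without BALB replicate 1. The risers were Ccng1 and Ei24 (1.09 ± 0.25). Plk2 fell by 1.91 ± 0.16. Gadd45a, a growth arrest gene, fell by 1.88 ± 0.22. The gene Mki67, a marker of cycling cells, rose from 6.67, 6.69 and 7.16 to 8.28, 8.73 and 7.96. The list for the G2 and M phases gave 5 rises and 1 fall of 24, a count that ran from 1 without BALB replicate 2, or without SKG replicate 1 or 2, to 12 without SKG replicate 3, with 3 without BALB replicate 1 or 3 and 8 with the replicate block. Kif23, a kinesin of cell division, was the member that fell (-1.43 ± 0.33). The list for the G1 and S phases gave 3 rises and 6 falls of 22, with a median difference of 0.0002. Without BALB replicate 1 or without normalization it gave 3 and 3. Histone genes gave 6 falls and no rise of 15, and 5 without BALB replicate 1. H2ax, the variant phosphorylated at DNA breaks, fell by 1.17 ± 0.15.

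Of 20 tested genes of the response to interferon-γ, 10 fell and none rose, with a median difference of -0.70 and 12 genes wholly below BALB. There were 9 falls without BALB replicate 1 and 5 without normalization. Cxcl10, given above, was a member, as was Irgm2, a GTPase of cell-autonomous immunity, which read 12.25, 12.26 and 12.12 in BALB and 10.48, 10.11 and 10.85 in SKG. Of 25 tested genes of the type I interferon response, 4 rose and 3 fell, close to the shares over all genes, with 3 and 1 without BALB replicate 1. With the replicate block 7 rose, when 19.9% of all genes did. Oas1a, an antiviral enzyme that activates RNase L, changed most. It read 4.46, 4.73 and 4.42 in BALB, at the bottom of the scale, and 9.41, 8.49 and 9.26 in SKG. The rise of 4.51 ± 0.25 was the fourth largest of all. Oas1b, a close paralogue on the same chromosome, rose by 0.99 ± 0.22 and Ifi27 by 2.26 ± 0.22. The remaining riser was Ifih1, a sensor of viral RNA, by 1.10 ± 0.30, a call lost without BALB replicate 1 or 3, SKG replicate 1 or 3 or normalization. Oasl1 fell by 1.04 ± 0.26, Irf9 by 0.51 ± 0.16 and Parp14 by 0.83 ± 0.26. These calls were lost in settings that left out 1 array, among them BALB replicate 2 for each of the 3 genes. Paralogues of this family are alike in sequence, and cross-hybridization of their probe sets was not tested. The type I counts hold for the genes of this list only. Outside it, the interferon-induced genes Ly6e (3.13), Ifitm2 (2.54), Plscr1 (1.87), Ifitm1 (1.79), Ifi44l (1.77) and Ifitm3 (1.40) were called higher. Samhd1, also outside it, was called lower (-1.40). Genes outside the list were not counted as a set. Of 8 tested interferon regulatory factors, 4 fell and 1 rose, with 3 and 0 without BALB replicate 1 and 2 falls without normalization. Irf1 read 12.67, 12.68 and 12.56 in BALB and 11.57, 11.52 and 11.38 in SKG, and Irf8 fell by 0.71 ± 0.11. Irf3 rose by 0.38 ± 0.12 on its brightest probe set, and its direction turned with the median of its 4 probe sets.

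The Oas1a promoter is shown because its gene rose from the bottom of the scale while most of its list did not. The window is chr5:120907526-120907775 (minus strand), and capitals mark an interferon-response-like element, GAAA followed by any 2 bases and GAAA, on either strand.
Oas1a: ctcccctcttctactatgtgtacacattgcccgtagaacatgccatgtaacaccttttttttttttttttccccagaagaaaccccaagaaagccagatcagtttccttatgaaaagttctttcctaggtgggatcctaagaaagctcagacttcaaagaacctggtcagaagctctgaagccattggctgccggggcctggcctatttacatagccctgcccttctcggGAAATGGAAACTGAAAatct
The 2 matches overlap and lie close to the start site. The element occurred in 2.61% of the promoters of tested genes, in 2.5% of those of genes called higher and in 2.56% of those of genes called lower.

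Adhesion genes rose more often than they fell, at 44.4% and 5.56% of integrin subunits against 15.7% and 11.8% of all genes. Of 18 tested integrin subunits, 8 rose and 1 fell; without BALB replicate 1 there were 7 and 1, without SKG replicate 1 there were 5 rises, and with the median of probe sets 4. Itgb8, whose product activates TGF-β, read 5.69, 6.11 and 5.85 in BALB and 10.02, 9.52 and 8.12 in SKG, a 10.1-fold rise. Itgb3 rose by 1.37 ± 0.22 and Itgb5 by 1.46 ± 0.28. Itga6, a laminin receptor chain, fell from 9.31, 9.43 and 9.69 to 7.15, 6.92 and 7.92. In the TGF-β family list, 10 of 25 genes fell and 3 rose, with 9 and 3 without BALB replicate 1 and 6 falls without normalization. Tgfb1, the cytokine itself, read 9.04, 9.22 and 8.9998 in BALB and 7.67, 7.43 and 7.78 in SKG. Tgfbr3, a co-receptor, fell by 2.12 ± 0.20 and Tgif1, a repressor of the pathway, by 1.35 ± 0.15. The members that rose were Itgb8, Itgav (0.998 ± 0.21) and Bmpr1a (1.25 ± 0.17); Itgav encodes the partner chain of Itgb8, and its 3 probe sets ranged from -0.09 to 0.998. In the list of Notch and Wnt genes, 8 of 18 fell and 2 rose, and 5 fell without BALB replicate 1 and 4 without SKG replicate 1 or without normalization. Lef1, a Wnt effector of naive T cells, fell by 1.30 ± 0.18 and Rbpj, the DNA-binding partner of Notch, rose by 1.26 ± 0.16. Jag1, a Notch ligand outside the list, was called higher by 1.49. Notch2 rose by 0.52 ± 0.17, a call lost under 11 of 18 alternatives, among them leaving out BALB replicate 1 or 2.

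Lysosomal cathepsins, which are proteases, gave 6 rises and 2 falls of 11, with 4 and 2 without BALB replicate 1 and 3 rises without SKG replicate 1 or without normalization. Ctsl read 11.71, 11.63 and 11.60 in BALB and 8.30, 8.28 and 9.84 in SKG, a 7.16-fold fall. Ctsw, the cathepsin of cytotoxic lymphocytes, rose by 1.96 ± 0.32. Ctse rose by 0.87 ± 0.15 and Ctsc fell by 0.45 ± 0.09. Of 20 genes of glycan sialylation and branching, 4 rose and 4 fell, with 3 and 2 without BALB replicate 1. Both were 2 without BALB replicate 2, SKG replicate 1 or SKG replicate 2, without normalization and with the median of probe sets. With array weights they were 7 and 9, and 9 fell without SKG replicate 3. Relatives went opposite ways. St3gal6, a sialyltransferase, rose from 6.88, 6.96 and 7.16 to 9.48, 9.66 and 8.46, while St3gal1 fell from 9.56, 9.35 and 9.32 to 6.78, 6.74 and 8.01. Gcnt1, which branches O-glycans, rose by 1.74 ± 0.25, and St8sia6 fell by 2.55 ± 0.40. Mgat2 (0.65 ± 0.18) and Fut8 (0.82 ± 0.26) were the remaining risers, and both calls were lost without BALB replicate 2. Among potassium channels, 3 of 31 rose and 1 fell, fewer than over all genes. Kcnk5 rose by 2.60 ± 0.29 and Kcnn4, the calcium-activated channel of T cells, fell by 2.11 ± 0.31.

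The genes of 2 inflammatory caspases rose. Casp1, the inflammasome protease, read 5.63, 6.02 and 5.84 in BALB and 8.94, 8.48 and 9.39 in SKG. Casp4 read 8.29, 8.67 and 7.70 in BALB and 11.39, 11.15 and 11.13 in SKG, an 8.03-fold rise. In the list of apoptosis and survival genes that holds them, 3 of 20 rose and 5 fell. The falls were 1 without BALB replicate 1, SKG replicate 1 or normalization, 2 without BALB replicate 2 or without the trend, and 3 without SKG replicate 2, without the filter or with the median of probe sets. The third that rose was Bik (1.05 ± 0.24), and Fasl, a death ligand, fell by 0.73 ± 0.15. Among molecules that restrain or mark strongly stimulated T cells, 7 of 12 rose and 1 fell, with 5 and 1 without BALB replicate 1. With the median of probe sets 4 of 11 rose. Ctla4, an inhibitory receptor, read 10.36, 10.63 and 9.42 in BALB and 13.19, 13.07 and 11.73 in SKG. Havcr2, which encodes TIM-3, rose by 3.02 ± 0.58 and Pdcd1, which encodes PD-1, by 1.43 ± 0.16. Cd274, the gene of the PD-1 ligand, fell by 0.68 ± 0.15, a call lost without normalization and in the fit of all 12 arrays.

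Among the brightest genes that changed at least 2-fold, Icos, a costimulatory receptor, rose from 11.30, 11.65 and 11.60 to 13.12, 13.22 and 13.00. Gadd45b, a stress and NF-κB target, fell from 12.91, 12.88 and 13.06 to 11.53, 11.69 and 12.30. Tardbp, an RNA-binding protein, rose by 1.07 ± 0.14 on its brightest probe set. Its 5 probe sets ran from -0.07 to 1.07, and with their median its direction turned. Over genes that changed at least 2-fold and had further probe sets above the floor, 317 of 368 that rose and 334 of 357 that fell had all probe sets in 1 direction. Large families without a common role stayed near the shares over all genes, with 16.3% higher and 12.9% lower among 209 solute carriers and 11.9% each way among 59 Rab GTPases.

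SKG replicate 3 lay nearer to BALB than the other SKG arrays did. It was the SKG array closest to the BALB arrays for 1115 of the 1901 genes called higher and 916 of the 1420 called lower. On a scale where the BALB mean is 0% and the mean of SKG replicates 1 and 2 is 100%, its median position over the 1350 genes called at 2-fold was 77.2%. The same measure for SKG replicate 1 or 2, each against the other 2 SKG arrays, was 111% and 115%. Both of these reference means include SKG replicate 3, so the 2 values are not independent of its position. The position of SKG replicate 3 was under 50% for 234 of these genes and 90% or more for 441. BALB replicate 3 also stood apart within its group. It correlated at 0.977 and 0.975 with the other BALB arrays, which correlated at 0.991 with each other. Deviations of the arrays numbered 3 from their group means correlated at 0.33. Whether these arrays share a technical shift was not tested.

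This distance from the other SKG arrays was not even across genes. Il17a stood at 103%, Ccr6 at 98.3%, Ptger2 at 101% and Sox4 at 98.5%, which is level with the other SKG arrays. Il10 stood at 34.6%, Il9 at 49.4%, Il13 at 60.5% and Ccl3, a chemokine of activated effector cells, at 45.7%. By list, median positions were 96.3% for the 8 genes of the unfolded protein response, 95.3% for 9 Th17 genes and 99.9% for 8 mitochondrial ribosomal proteins. They were 45.7% for 7 chemokines, 49.4% for 11 interleukins, 56.9% for 7 cytotoxic genes, 60.5% for 7 Th2 genes and 63.7% for 15 genes of naive and recirculating cells. These lists are small, share members and were not compared by a test.

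**Figure D4:**
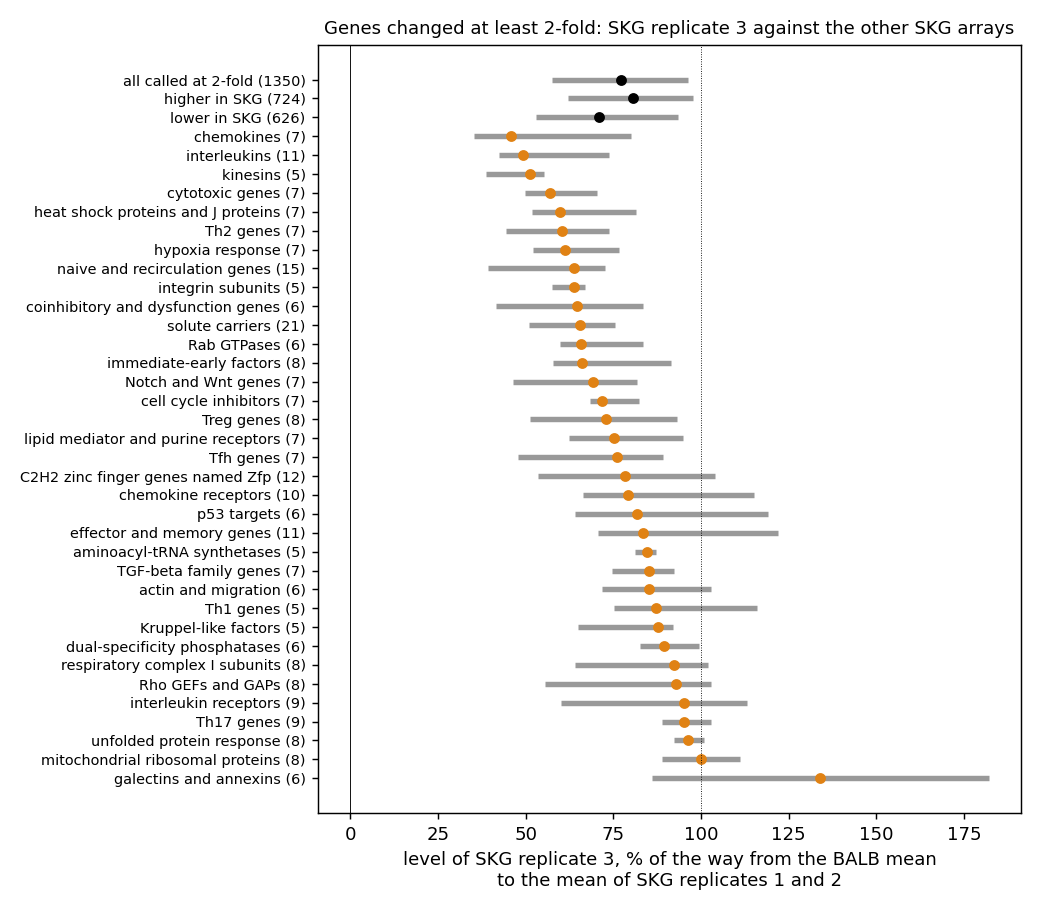
Position of SKG replicate 3 between the BALB mean (0%) and the mean of SKG replicates 1 and 2 (100%) for genes called at 2-fold, with the number of genes in parentheses. Dots are medians and bars the middle 50% of genes; black dots are all such genes (77.2%), those higher (80.7%) and those lower (71.0%), and orange dots are lists with at least 5 such genes, from chemokines at 45.7% to galectins and annexins at 134%.

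The largest differences that did not pass the test belonged to genes on which SKG replicate 3 sided with BALB. Perp, a p53-induced membrane protein, read 6.20, 6.16 and 5.65 in BALB and 9.23, 8.67 and 5.92 in SKG, a difference of 1.94 ± 0.71 (limma adjusted p = 0.0741). Plek, a protein kinase C substrate, read 8.39, 8.32 and 8.36 in BALB and 11.25, 10.78 and 8.35 in SKG. Eomes, a factor of cytotoxic and memory cells, read 7.01, 7.37 and 7.03 in BALB and 9.76, 9.58 and 6.96 in SKG. The groups overlapped for all 3 genes, and the same held for AI506816, Irx3 and Pik3ap1. With SKG replicate 3 left out, each of these 6 genes passed the test. In each of them that array lay on the BALB side, so these passes follow from the choice of genes. With the replicate block, Perp, Plek, Pik3ap1 and Eomes passed, with limma adjusted p from 0.00179 for Pik3ap1 to 0.0281 for Eomes.

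BALB replicate 1, the array with the different label, rarely stood alone. No tested gene lay more than 2-fold above all other 5 arrays on it, and 6 lay more than 2-fold below. The farthest above was 3300002A11Rik, at 7.11 against 6.22 and 6.08 in the other BALB arrays. Mcam, an adhesion molecule, read 6.36 there against 5.50 and 5.36. The farthest below was Zmym3, at 4.52 against 6.10 and 6.48, followed by Auh, at 4.71 against 6.14 and 6.22.

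Markers of other cell types differed between lineages, and several lists held members well above the bottom of the scale. None of 11 tested myeloid markers passed, and the summed linear intensity of that list was 468 to 1160 in BALB and 463 to 1392 in SKG. Its members Lyz2, Adgre1 and Mpo lay between 4.66 and 5.22 in mean level in both groups, close to the floor of 4.75. Most of the summed intensity came from other members of the list. Of 8 tested B cell markers, 1 rose and none fell, with a summed intensity of 742 to 2614 in BALB and 3003 to 7055 in SKG. The member that rose was Ighm, an immunoglobulin heavy chain gene, at 10.14, 9.37 and 11.16 in BALB and 12.29, 12.73 and 11.45 in SKG. Its 8 probe sets ran from -0.22 to 1.94, and the call was lost with their median. Cd79a, a defining B cell gene, had means of 4.78 and 5.15.

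Of 5 tested plasma cell markers, 3 rose, with sums of 3008 to 3829 in BALB and 6388 to 7732 in SKG. They were Prdm1, from 8.49, 8.43 and 8.47 to 10.61, 10.74 and 9.30, Derl3 (0.80 ± 0.20) and Xbp1, which also counts in the unfolded protein response. Activated T cells express Prdm1 and Xbp1 too. Jchain, a defining plasma cell gene, had means of 8.40 and 9.41 and did not pass. The remaining tested member went the other way, at -0.64 with all SKG arrays below all BALB arrays, and did not pass. It was called lower with array weights and without SKG replicate 3. Outside these lists, the immunoglobulin gene Igkv8-30 was called higher by 1.42 and Igha was called lower by 1.41. The part of plasma cells in the rise of the secretory and folding genes was not tested. Of 6 tested CD8 and NK cell markers, 2 rose and 1 fell, with sums of 457 to 539 in BALB and 685 to 2897 in SKG. Nkg7, a granule protein of cytotoxic cells, read 6.19, 6.50 and 6.59 in BALB and 10.93, 10.66 and 8.29 in SKG. Klrd1 rose by 0.70 ± 0.21, a call lost without BALB replicate 1, and Cd8b1 fell from 7.91, 7.95 and 7.95 to 4.79, 4.91 and 6.65. Cd8a had means of 4.75 and 5.56 and did not pass. Of 4 erythroid, mast cell and stromal markers, Kit fell by 1.38 ± 0.18, and that list summed to 407 to 494 in BALB and 214 to 247 in SKG.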

How the data were processed

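The deposited series matrix holds 1 linear intensity per probe set and array, as the authors deposited it. Which software and normalization produced the deposited intensities is not given in the sources used here. Per the labels' protocols, RNA was extracted with RNeasy and biotin-labelled by in vitro transcription. From these values, 45101 probe sets less 64 controls were quantile normalized over the 6 arrays as log2(intensity + 16), a scale that understates the change of dim genes. The brightest probe set listing 1 gene stood for each gene, with symbols updated to GRCm38.p6. Genes with a mean at or above the 40th percentile of all probe sets were tested.

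The fit was limma 3.58.1 in R 4.3.3 (lmFit, eBayes with trend). Tests were two-sided, and a gene was called at p under 0.05 after Benjamini-Hochberg adjustment over 12076 genes. Gene lists, families and members were chosen with earlier results of these data known, and lists are described by counts and medians without a set test. Named genes are the 15 largest rises and falls, per list described up to 4 members with the smallest p and those called against the majority, the 8 brightest changed genes, the 6 largest differences that did not pass, genes on which BALB replicate 1 stood alone, and markers that passed; exceptions are stated. Replicate numbers come from the labels. Deviations of same-numbered arrays from their group means correlated at 0.13, 0.20 and 0.33, so a blocked fit on these numbers was made. Arrays numbered 1 and 2 correlated as highly across numbers (0.17 in both pairs), and replicate 3 with the others at -0.26 to -0.21, so the numbers set replicate 3 apart but do not separate 1 from 2. The script was tested on simulated data. The alternatives were added constants of 1 and 64, no normalization, no filter on level or a filter at the 60th percentile, trimmed mean scaling, other choices of probe set, no trend, the replicate block, all 12 arrays, array weights and leaving out each array.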

Additional observations from a re-analysis of the deposited data

How the results depend on the processing

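Of 219 genes named in the text, 145 kept their direction and their side of the threshold under all 18 alternatives. Genes named as lying outside a list, and Cxcr5 and Ccr9, are not among the 219. The number of genes higher in SKG, 1901, was 1130 without normalization and 2917 with array weights, and the number lower, 1420, was 830 and 2207. With 1 array left out, the counts ran from 1114 to 2192 higher and from 874 to 1715 lower. Direction turned with the median of probe sets for Irf3 (-0.19) and Tardbp (-0.0089). Adgre1, which was not called, turned to 0.023 with trimmed mean scaling and 0.25 with array weights. With 1 array left out, Adgre1 ran from -0.24 to 0.25, Mpo from -0.17 to 0.094 and Ptger4 from -0.027 to 0.012, none of them called in the main comparison. Leaving out SKG replicate 1 ended the calls of 27 named genes, and no normalization those of 33. The replicate block gave 2402 genes higher and 1769 lower, and beyond the genes and lists for which it is given above it changed no call of a named gene. Rises made up 52.6% to 59.3% of calls under every setting. Few arrays limit the precision, and 6.43% of the 3019 dimmest genes were called.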
